A study of Homo sapiens with 42 samples.

Results

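Distal accessible regions that were lost in 2 or more cancer cell lines after inhibition of the BAF chromatin remodeller are described here. A region counted as lost in a line when an ATAC-seq interval covered the same bases in all 3 DMSO samples, over at least 100 bp, and no interval overlapped that segment in any of the 3 FHT-1015 samples. Segments lost in 1 line were kept when they overlapped a lost segment of another line by at least 1 bp, and were joined across lines. The centre of the joined region had to lie over 1 kb from both ends of every RefSeq protein-coding gene. This gave 2080 regions on chromosomes 1 to 22 and X, out of 46730 distal regions open in all DMSO samples of at least 2 lines. The regions were chosen by the presence of intervals in these same samples, so their losses in the lines that chose them are a description with no test.

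The study profiled 42 samples of 7 established human cancer lines, all labelled wild type. The melanocytic lines were 92-1, from a uveal melanoma, and A375, from a melanoma. The carcinoma lines were 22RV1 (prostate adenocarcinoma), HCT116 (colorectal adenocarcinoma) and DU4475 (invasive breast carcinoma), and the others were RD (rhabdomyosarcoma) and MV411 (acute myeloid leukaemia). Cells received either the solvent DMSO, as the negative control, or FHT-1015, which inhibits both SMARCA4 and SMARCA2, for 4 h, at a dose the sources used here do not state. Each of the 14 groups of line and treatment had 3 biological replicates. The series' own design statement leaves MV411 out and lists the other 6 lines.

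BAF complexes use the energy of ATP, through the ATPase SMARCA4 or SMARCA2, to slide or eject nucleosomes. Distal enhancers, where transcription factors such as those of the AP-1 family bind, are known to depend on this activity more than most promoters do. In ATAC-seq a transposase cuts DNA that nucleosomes leave open, so a region without an interval had too few cuts to stand out from its surroundings in that sample.

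Sequence was at hand only for promoter windows, taken here as the 250 bases before and 50 bases after a RefSeq gene start. Although all 2080 regions lay away from the ends of protein-coding genes, 39 (1.88%) overlapped such a window, 24 of them of long non-coding RNA genes and the others of inner starts of protein-coding genes. Among kept shared distal regions, which were open in all DMSO samples of at least 2 lines and lost in none, 2483 of 33451 (7.42%) overlapped one. The 5 windows of non-coding genes that lay wholly inside a lost region are printed. Each window is only a part of its region, which is wider. They were chosen after the data were seen. They are from RefSeq GRCh38.p14, 5′ to 3′ on the strand of the gene, and capitals mark each match to TGANTCA, the core of the site that AP-1 factors bind.
LOC105369880, chr12:87428902-87429201, plus strand: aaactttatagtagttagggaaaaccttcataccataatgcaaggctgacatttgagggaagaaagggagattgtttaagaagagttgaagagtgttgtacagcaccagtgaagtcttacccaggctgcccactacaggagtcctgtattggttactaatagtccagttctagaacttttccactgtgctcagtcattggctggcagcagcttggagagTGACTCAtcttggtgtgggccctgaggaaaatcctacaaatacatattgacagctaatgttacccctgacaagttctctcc
LINC02872, chr9:87148394-87148693, plus strand: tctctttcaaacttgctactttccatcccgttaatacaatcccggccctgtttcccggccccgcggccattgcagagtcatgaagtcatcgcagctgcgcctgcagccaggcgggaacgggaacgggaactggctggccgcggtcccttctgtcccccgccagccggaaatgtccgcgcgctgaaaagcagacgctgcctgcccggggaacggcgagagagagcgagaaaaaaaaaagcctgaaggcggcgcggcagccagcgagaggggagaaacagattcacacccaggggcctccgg
PRECSIT, chr13:110870259-110870558, minus strand: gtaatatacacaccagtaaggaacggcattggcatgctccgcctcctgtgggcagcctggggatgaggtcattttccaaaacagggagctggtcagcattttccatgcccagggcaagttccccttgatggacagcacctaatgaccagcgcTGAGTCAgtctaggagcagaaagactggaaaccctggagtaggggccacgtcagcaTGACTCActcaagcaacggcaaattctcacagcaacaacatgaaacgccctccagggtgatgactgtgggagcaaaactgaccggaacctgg
LOC388282, chr16:57810269-57810568, plus strand: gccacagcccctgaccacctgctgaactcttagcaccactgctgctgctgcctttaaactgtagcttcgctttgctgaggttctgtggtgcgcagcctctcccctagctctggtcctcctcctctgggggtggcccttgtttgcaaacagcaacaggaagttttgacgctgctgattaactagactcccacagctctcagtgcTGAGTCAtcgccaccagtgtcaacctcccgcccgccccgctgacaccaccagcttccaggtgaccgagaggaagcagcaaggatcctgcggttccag
LOC105375170, chr7:16989968-16990267, plus strand: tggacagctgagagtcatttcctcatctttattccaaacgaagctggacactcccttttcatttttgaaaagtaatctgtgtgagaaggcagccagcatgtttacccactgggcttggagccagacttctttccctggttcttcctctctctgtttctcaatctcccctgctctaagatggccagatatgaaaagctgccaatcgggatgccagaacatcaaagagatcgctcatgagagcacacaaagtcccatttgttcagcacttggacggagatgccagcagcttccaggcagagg

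The LOC105369880 and LINC02872 windows were lost in 92-1 and RD, the PRECSIT window in 92-1 and MV411, the LOC388282 window in RD and MV411, and the LOC105375170 window in HCT116 and MV411. The letters TGANTCA, which read the same on both strands, occurred in 3 of the 5 windows, and the PRECSIT window held 2 matches. Of all 39 windows overlapping a lost region, 12 (30.8%) held TGANTCA. The share was 9.34% of 3200 windows overlapping kept regions, 10.3% of 12829 windows of all non-coding genes and 7.68% of 34961 windows in all. The 12 windows belonged to LAMB3, TRIM62, SETBP1, PRECSIT, INCR1, LINC00460, LOC105369880, LOC105371094, LOC107986337, LOC388282, LOC105373461 and LOC124903564.

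The other 21 of the 22 motifs searched on both strands gave shares on either side of those in kept regions. GAGGAAG, a site type of the ETS factor PU.1, was in 33.3% of the windows in lost regions against 15.3% in kept regions. CAGCTG, an E-box read by muscle and neural helix-loop-helix factors, was in 33.3% against 19.4%. GGGCGG, the GC box of SP and KLF factors, was in 23.1% against 61.2%, and the NRF1 palindrome was in 0 of 39 against 10.03%. For the last 2 motifs the shares over all non-coding windows, 25.6% and 4.37%, were nearer to those in lost regions than the shares in kept regions were. These counts describe 39 windows and were not tested, and a window reaches outside its region where the overlap is partial. The promoter windows are 39 of 2080 regions and do not stand for the regions that have no gene start.

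The lines contributed unequally. Of the 2080 regions, 1975 were lost in 2 lines, 104 in 3 lines and 1 in 4 lines. Of these regions 92-1 lost 1091, MV411 757, A375 689, 22RV1 667, RD 624, DU4475 220 and HCT116 218. The share of all distal open segments that a line lost was 40% of 30979 in 92-1, 23.1% of 96634 in MV411, 12.3% of 41238 in A375, 22.7% of 51710 in 22RV1, 23.5% of 29150 in RD, 9.15% of 37361 in DU4475 and 7.84% of 17426 in HCT116. Most lost segments were not shared: those in the regions described here were 3.40% of the lost distal segments of MV411, 8.81% of those of 92-1 and up to 15.9% of those of HCT116. A further 58877 distal regions were lost in 1 line only. A loss can be shared only where another line has the segment open. Of the distal segments of MV411, 16378 were open in 2 or more other lines as well, beside the 96634 open in MV411. In HCT116 it was 11734 beside 17426. The part of this in the low shares was not tested.

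The same rule applied the other way, to segments covered in all FHT-1015 samples with no interval in DMSO samples, gave 36 distal regions gained in 2 or more lines. The share of a line's segments gained was 1.41% of 40972 in MV411, 3.02% of 14053 in HCT116 and 3.68% of 23048 in A375. It was 6.23% of 27394 in DU4475, 7.68% of 9977 in RD, 8.84% of 26990 in 22RV1 and 14% of 3820 in 92-1. In every line fewer distal segments were covered in all FHT-1015 samples than in all DMSO samples. The 36 gained and 2080 lost regions therefore come from unlike totals. Within 1 kb of gene ends, 105 regions were lost in 2 or more lines, and the shared open regions there were not counted. Without 92-1 the number of shared lost distal regions was 1057, without MV411 it was 1379, and with segments of at least 200 bp it was 459. Leaving out replicate 3 of 92-1 DMSO, 1 of the 3 samples whose intervals must coincide, raised it to 3124.

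Samples differed in how many intervals they listed and in depth. The lists held 112082 to 430667 intervals. Read numbers are unknown, and a background pileup recovered from the fold and p of the peaks, which stands in for relative depth, ranged from 0.0341 to 2.79 reads. It was lower with FHT-1015 than with DMSO in MV411 (0.266 ± 0.00548 against 0.453 ± 0.0484, SD, n = 3 each), higher in 22RV1 (0.895 ± 0.128 against 0.633 ± 0.0889), and lowest of all in replicates 2 and 3 of 92-1 FHT-1015. In 92-1 it was 0.123 ± 0.153 with FHT-1015 against 0.212 ± 0.189 with DMSO, and the lists held a mean of 216408 against 378797 intervals. Intervals at a −log10 q of at least 5 numbered 19173, 1946 and 1332 in the 92-1 FHT-1015 samples. In its DMSO samples they numbered 62144, 24649 and 13947. The part of these differences in the losses was not tested. Without replicates 2 and 3 of 92-1 FHT-1015, 2433 regions were lost in 2 or more lines. Leaving out FHT-1015 samples makes the rule easier to meet, so this number cannot show what their depth contributed. As a check of the labels, intervals at the ends of lineage marker genes were counted in DMSO samples. All 5 myeloid markers in MV411 and all 5 epithelial markers in DU4475 had a strong interval in all 3 samples, as did 4 of 5 muscle markers in RD. In the other lines fewer markers had a strong interval in all 3 samples. This held for 2 of 5 in 22RV1, 1 of 6 in A375, 0 of 6 in 92-1 and 0 of 5 in HCT116. At the looser count of intervals of any strength, 4 of the 5 or 6 markers in 22RV1, A375 and 92-1 had one in all 3 samples. In HCT116 2 of 5 intestinal markers had an interval of any strength in all 3 samples, and 2 had none in any sample.

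The pair of melanoma lines shared the most losses, yet shared them with the least excess over their own rates but 1 pair. Of the 9298 distal segments open in the DMSO samples of both 92-1 and A375, 332 (3.57%) were lost in both. In 92-1 and 22RV1 there were 263 (2.97% of 8861), in 92-1 and MV411 235 (2.59% of 9090), in 92-1 and RD 221 (4.03% of 5490), and in DU4475 and HCT116 13 (0.195% of 6662). If loss in 1 line carried no information on loss in another, the number of segments lost in both would be the product of the 2 shares and the number open in both. The observed number was above this product in 21 of 21 pairs, by 1.68 (RD and DU4475) to 5.30 times (22RV1 and MV411), with a median of 2.86. For 92-1 and A375 it was 1.79 times. HCT116, which lost the fewest segments, shared them at 5.16 times the product with 22RV1 and 4.55 times with 92-1. The rule selects on losses shared between lines, so these ratios describe the regions and do not test them.

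The upper part of the lists was also counted alone. Among segments at or above the 75th percentile of their own list in both lines, the observed number was above the product in 20 of 21 pairs. The exception was A375 and MV411, where 0 such segments were lost in both against a product of 1.28. Few such segments were lost in both lines, and in the 4 pairs with a product over 5 the ratio was 1.91 to 5.01. These ratios use the samples that chose the regions and are descriptions. In every line loss was rarer at stronger DMSO peaks, also within the part above the 75th percentile. The part of peak strength in the ratios was not tested.

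The other pairs shared fewer losses. MV411 shared 184 lost segments with RD (2.01% of the segments open in both), 167 with 22RV1 (1.08%), 126 with A375 (1.06%), 56 with DU4475 (0.553%) and 43 with HCT116 (0.433%). The pairs among 22RV1, RD and A375 shared 100 (22RV1 and A375, 1.07%), 99 (RD and A375, 1.02%) and 94 (22RV1 and RD, 1.21%). These 3 lines come from a prostate carcinoma, a muscle tumour and a melanoma, and their counts were nearly equal. Relative to the product of the 2 shares they were not, at 4.03 times for 22RV1 and A375, 2.46 for RD and A375 and 2.53 for 22RV1 and RD. DU4475 shared 55 with 92-1 (1.11%), 56 with 22RV1 (0.515%), 35 with A375 (0.398%) and 25 with RD (0.333%). HCT116 shared 56 with 92-1 (1.02%), 50 with A375 (0.638%), 46 with RD (0.83%) and 36 with 22RV1 (0.357%).

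**Figure D1:**
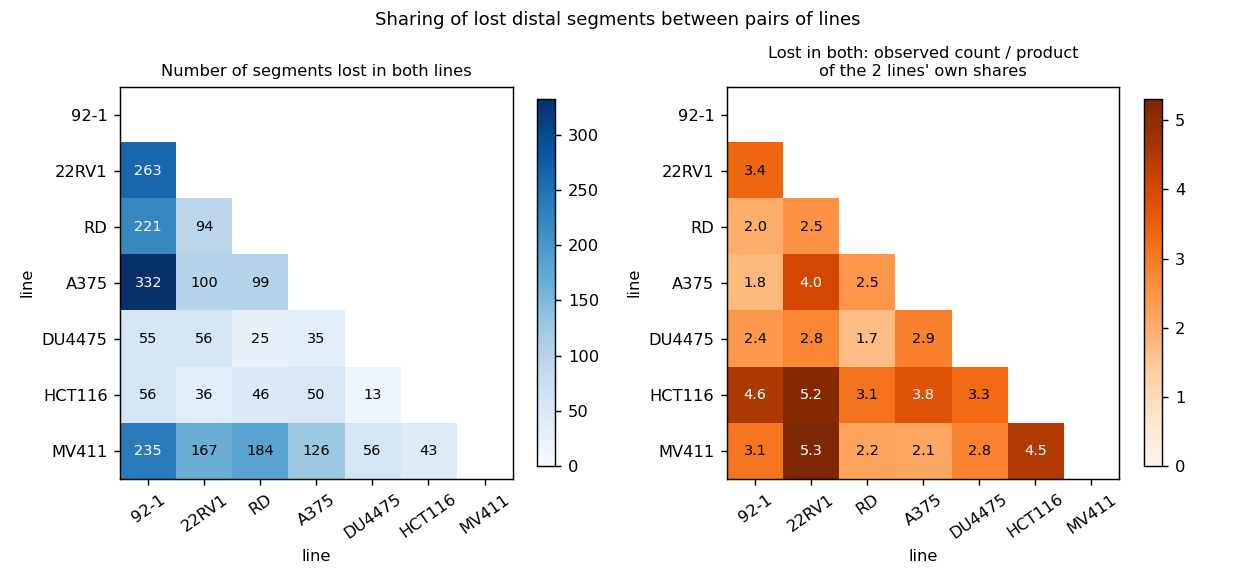
Losses shared by each pair of the 7 lines. The left panel gives the number of distal segments lost in both lines and the right panel this number divided by the product of the 2 lines' own shares. The number is highest for 92-1 and A375 (332) and the ratio for 22RV1 and MV411 (5.30).

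Regions lost in some lines also lost intervals in lines that had no part in choosing them. The 7 lines fall into 4 whose deposited peak names hold the word small (92-1, 22RV1, HCT116 and MV411) and 3 whose names do not (RD, A375 and DU4475). The sources used here do not say what the word marks, so regions were chosen in the lines of 1 kind and counted in the lines of the other. The measure was the percent of regions whose central 100 bp overlapped an interval in a sample. Labels were permuted within lines in an exact two-sided test, and the 6 tests made were adjusted together by the Benjamini-Hochberg method.

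The 750 regions lost in 2 or more of 92-1, 22RV1, HCT116 and MV411 had an interval in 29.3% of cases in DMSO samples of RD, A375 and DU4475 and in 16.9% with FHT-1015. The difference was -12.4 percentage points and lay below 0 in 3 of 3 lines (exact permutation p = 0.00025, the smallest that 8000 assignments allow, adjusted p = 0.0005). In RD the DMSO share was 23.5% ± 2.32 and the FHT-1015 share 10.7% ± 3.37, and these were 41.8% ± 5.67 and 24.8% ± 7.71 in A375, and 22.5% ± 2.92 and 15.1% ± 2.23 in DU4475 (SD, n = 3 samples each; groups did not overlap, exact permutation p = 0.1 each, the smallest that 3 against 3 samples allow). The 20323 regions that the selecting lines kept went from 49.7% to 44.5%, a difference of -5.19 points with a permutation p of 0.125, and in A375 their mean was 1.41 points higher with FHT-1015. The lost regions fell further than the kept ones, with a difference between the changes of -7.23 points (exact permutation p = 0.01125, adjusted p = 0.0135), and this difference was -18.4 points in A375, -2.69 in DU4475 and -0.605 in RD.

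In the other direction, 158 regions lost in 2 or more of RD, A375 and DU4475 were counted in 92-1, 22RV1, HCT116 and MV411. Intervals were present in 28.1% of cases with DMSO and 13.3% with FHT-1015, a difference of -14.7 points that lay below 0 in 4 of 4 lines (exact permutation p = 2.5e-05, adjusted p = 0.00015). In 92-1 the DMSO share was 35.9% ± 7.42 and the FHT-1015 share 7.81% ± 6.46, and these were 25.9% ± 2.28 and 13.3% ± 0.633 in 22RV1, and 29.3% ± 1.32 and 18.4% ± 3.35 in MV411 (SD, n = 3 samples each, groups not overlapping, exact permutation p = 0.1 each). In HCT116 it was 21.1% ± 3.49 and 13.9% ± 4.15, and the samples overlapped. The 12459 kept regions also fell, from 50.6% to 40.6% (exact permutation p = 5e-05, adjusted p = 0.00015). The lost regions fell further, with a difference of -4.72 points (exact permutation p = 0.0015375, adjusted p = 0.00231). Without 92-1 the difference in the lost regions was -10.3 points (exact permutation p = 0.0005). No difference in the size of the fall between tested lines passed the exact permutation test, whose lowest adjusted p was 0.728 over 9 pairs of lines. The widest was 92-1 at -28.1 points against HCT116 at -7.17 (exact permutation p = 0.135). Because labels were permuted within lines, the falls themselves widen the permuted differences. The test therefore cannot show that the falls were alike.

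Each line was then left out of the choice in turn. In 92-1, 1057 regions lost in 2 or more of the other 6 lines had an interval in 37.3%, 28.3% and 24.7% of cases in the DMSO samples and in 11.3%, 6.34% and 5.11% in the FHT-1015 samples. In A375 the shares over 1443 regions were 44.4%, 49.9% and 38.9% with DMSO and 20.9%, 36.9% and 25.6% with FHT-1015. These are the widest gaps of the 7 lines, and A375 had intervals at such regions more often than any other line in both conditions. In RD (1497 regions) the shares were 24.3%, 20.6% and 21.04% with DMSO and 7.75%, 6.88% and 13.8% with FHT-1015. In MV411 (1379 regions) they were 25.7%, 24.5% and 28.1% against 15.5%, 16.0% and 14.5%. In 22RV1 (1459 regions) they were 22.6%, 25.9% and 22.8% against 14.8%, 12.3% and 13.5%.

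The smallest gaps were in DU4475 and HCT116, which also lost the fewest segments. The 1878 regions in DU4475 had an interval in 24.2%, 18.1% and 20.02% of cases with DMSO and in 15.9%, 16.7% and 12.9% with FHT-1015. The 1885 regions in HCT116 had 16.2%, 19.7% and 19.3% with DMSO and 9.92%, 13.2% and 13.3% with FHT-1015. DMSO and FHT-1015 samples did not overlap in 7 of 7 lines. With 3 against 3 samples the exact permutation p was 0.1 in each line, the smallest possible, and stayed at 0.1 after adjustment over the 7 lines.

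The kept regions were counted in the same way in each line. With FHT-1015, regions lost elsewhere had an interval at 25.2% of their DMSO share in 92-1, and kept regions at 52.6%. The corresponding values were 62.6% and 99.3% in A375, 57.0% and 90.6% in 22RV1, 58.7% and 90.03% in MV411, 66.0% and 93.5% in HCT116, 73.1% and 89.6% in DU4475, and 43.0% and 66.5% in RD. In percentage points the change in the lost regions minus that in kept regions was -16.3 in A375, -5.46 in MV411, -5.17 in 22RV1, -3.39 in HCT116, -1.15 in DU4475 and -0.773 in 92-1. In RD it was 0.386, on the other side of 0, for lost regions whose DMSO share was 22.0% against 38.6% for kept regions. With 3 against 3 samples the exact permutation p cannot go below 0.1, so none of these 7 differences could pass the test (adjusted p = 0.233 to 1). In A375, 22RV1 and MV411 the p stood at 0.1.

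**Figure D2:**
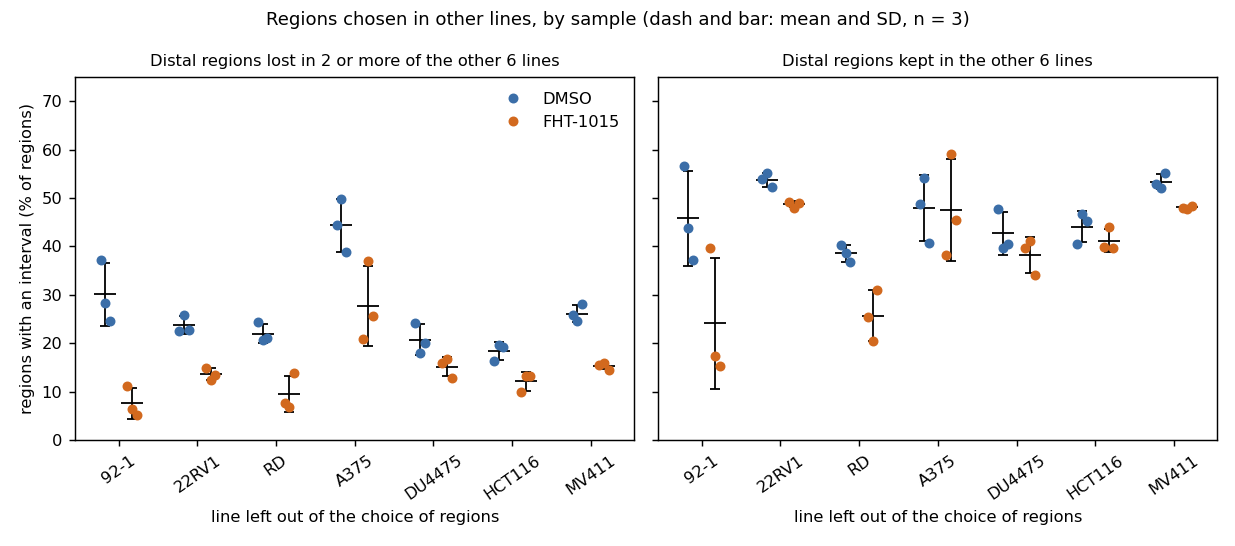
Percent of regions with an interval over their central 100 bp in each sample, for regions lost (left) or kept (right) in the other 6 lines, with each dot a sample and the dash and bar the mean and SD of 3 samples. On the left the DMSO and FHT-1015 samples do not overlap in any line, and on the right they overlap in 92-1, A375, DU4475 and HCT116.

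Complete loss by the rule was also counted. Of the regions lost in 2 or more other lines and open in all 3 DMSO samples of 92-1, 47.2% (68 of 144) were lost there. In 92-1 this compares with 18% of segments that were open in 2 or more other lines and 40% of all its distal open segments. The share was 23.4% (47 of 201) in 22RV1, 20.6% (56 of 272) in MV411, 13.9% (23 of 166) in HCT116, 11.1% (52 of 467) in A375, 8.78% (18 of 205) in DU4475 and 23% (42 of 183) in RD. Segments open in 2 or more other lines were lost at 5.45% in 22RV1, 11.7% in RD, 5.45% in MV411, 3.83% in HCT116, 3.95% in A375 and 3.14% in DU4475. Against all distal open segments of the same line, which include those open in that line alone, the share was higher in 92-1 and HCT116, and near it or lower in the other 5 lines. No test over samples is possible for these shares, since each line gives 1 value.

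The rate of loss went with the strength of the DMSO peak. In every line the percent of distal open segments lost fell from the weakest to the strongest DMSO peaks, in 92-1 from 68.5% under the 50th percentile to 25.3% above the 90th. Within the same band of strength, regions lost in 2 or more other lines were lost more often than segments open in 2 or more other lines in 20 of the 22 bands with at least 20 regions, and more often than all distal open segments in 17 of 22. Above the 90th percentile in 92-1, 38.5% (35 of 91) of them were lost, against 11.3% and 25.3%. Between the 75th and 90th percentile in 22RV1 it was 31.8% (28 of 88), against 7.004% and 22.95%.

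**Figure D3:**
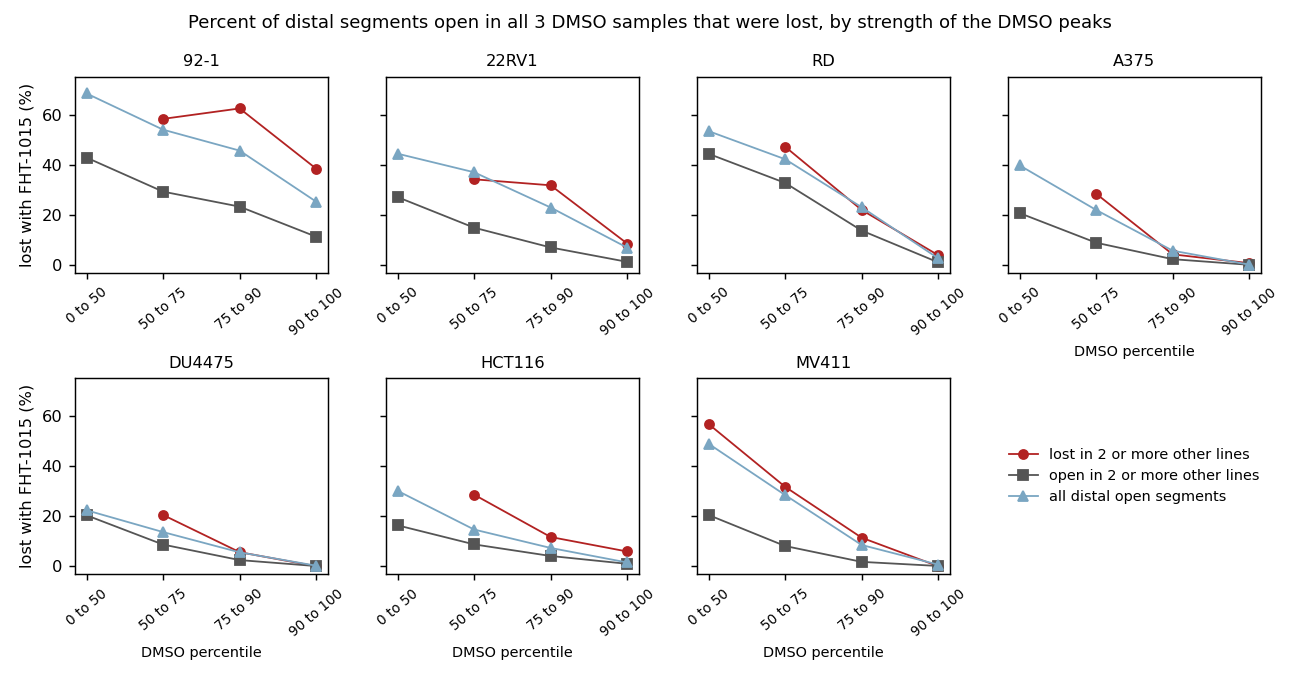
Percent of distal segments open in all 3 DMSO samples of a line that had no interval with FHT-1015, by band of the mean percentile of their DMSO peaks, for regions lost in 2 or more other lines (red), segments open in 2 or more other lines (grey) and all distal open segments (blue). Points from under 20 regions are left out, and rates fall towards strong peaks, in 92-1 from 68.5% to 25.3% for all segments.

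The lost regions were weaker before treatment than kept ones. The median percentile of their DMSO peaks, by −log10 p within the list of the same sample, was 83.9 in 92-1 against 91.7 for kept shared distal regions. It was 77.4 against 89.0 in 22RV1, 76.5 against 88.4 in RD, 71.5 against 88.2 in HCT116, 65.6 against 82.7 in A375, 63.6 against 86.2 in DU4475 and 56.5 against 76.8 in MV411. How far this sets which regions the rule takes was not tested. Of the 2080, 691 regions (33.2%) had a −log10 q of at least 5 in all 3 DMSO samples of a losing line, and 65 (3.13%) did so in 2 or more losing lines. In 2 regions, 1 nearest to TLE4, a Groucho corepressor, and 1 nearest to C1orf198, this held in 3 lines, 92-1, 22RV1 and MV411. These 2 were named after their values were seen.

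**Figure D4:**
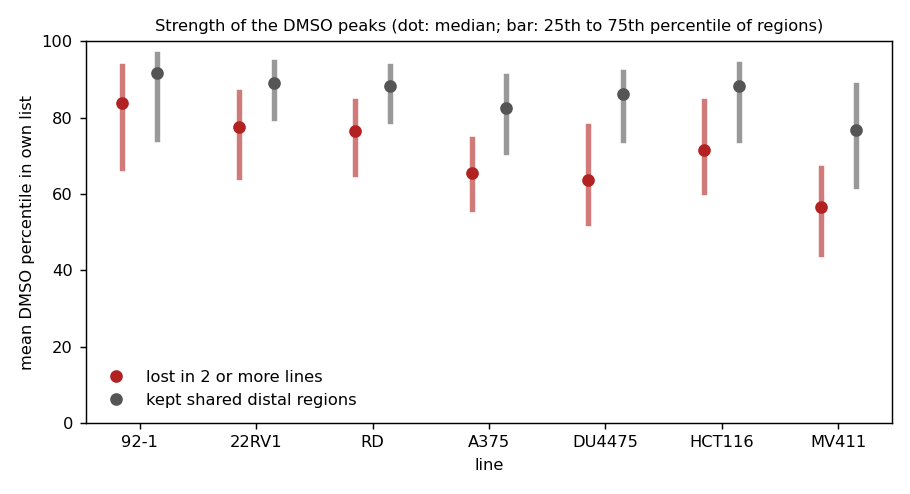
Mean percentile of the DMSO peaks in their own lists for regions lost in 2 or more lines (red, in the lines that lost them) and kept shared distal regions (grey), with the median as a dot and the 25th to 75th percentile of regions as a bar. The medians of lost regions are lower in all 7 lines, from 56.5 against 76.8 in MV411 to 83.9 against 91.7 in 92-1.

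The regions were narrower than kept shared regions and lay further from gene ends. Their median width was 260 bp (interquartile range 212 to 341), between 178 bp for regions lost in 1 line and 388 bp for kept shared regions. Kept regions join the open segments of all lines that share them, and lost regions join lost segments only. The widths are therefore not built alike, and part of their order comes from the joining. The median distance from the nearest end of a protein-coding gene was 48.9 kb, against 33.0 kb for kept regions and 55.3 kb for regions lost in 1 line. More than 100 kb from any such end lay 683 regions (32.8%), against 24.8% of kept regions, and 205 (9.86%) lay within 5 kb. The share inside a gene, 1033 regions or 49.7%, was near that of kept regions (47.7%). Chromosome 19, which is dense in genes, held 10 of the regions, a share 0.182 times that of kept regions, and chromosome X held 81, a share 1.79 times as high. At the limit of the rule, the nearest centre inside was 1001.5 bp from a gene end and the nearest outside 993 bp. The shortest lost segments were 100 bp, at which 215 stood, and those at 99 bp were left out.

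An interval was present at a median of 9 of 21 DMSO samples and 2 FHT-1015 samples. For 465 regions (22.4%) no FHT-1015 sample of any line had an interval, and 16 regions had one in all 21 DMSO samples. Many of the regions that a line did not lose were not open in it: 37.0% of them in A375 and up to 58.0% in MV411 had no interval in any of the 6 samples. Intervals in all 3 DMSO and all 3 FHT-1015 samples were present at 14.9% in A375, 8.24% in MV411, 6.94% in DU4475, 3.89% in 22RV1, 3.54% in HCT116, 1.85% in RD and 1.21% in 92-1. Some losses had an FHT-1015 interval nearby: in 697 of the 4266 losses of a region by a line (16.3%) one of that line lay within 200 bp, and in 1228 (28.8%) within 500 bp.

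The regions lost in the most lines are named with their values. The planned rule named regions lost in 5 or more lines, which do not occur, so the region lost in 4 lines and the 11 regions lost in 3 lines with the highest DMSO percentiles were named after their values were seen. Coordinates are those of the files (hg38). Folds are the authors' enrichment of the highest peak over background and are given to describe each list.

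The region lost in 4 lines is chr3:112097497-112097751, inside C3orf52 and 11.2 kb from its nearer end. In 92-1 the 3 DMSO samples had folds of 5.60, 2.67 and 4.59, in DU4475 3.95, 5 and 2.65, in HCT116 4.96, 6.25 and 4.03, and in MV411 3.68, 5.52 and 3.18. None of the 12 FHT-1015 samples of these lines had an interval. These are weak to moderate peaks, as low as the 15.1 percentile of its list in MV411. The −log10 q was 1.23 in replicate 2 of 92-1 DMSO and 0.956 in replicate 3 of DU4475 DMSO, which is short of q below 0.05. At that threshold 92-1 and DU4475 would not count as open in all 3 DMSO samples. In none of the 4 lines did all 3 DMSO samples reach a −log10 q of 5. A375 had intervals in all samples, at folds of 8.14, 7.12 and 4.07 with DMSO and 4.48, 6.21 and 4.46 with FHT-1015. In 22RV1 the DMSO folds were 10.7, 14.4 and 5.88, and of the FHT-1015 samples replicate 1 had no interval and the others had 3.70 and 4.45. Intervals were present in 19 of 21 DMSO samples and 5 FHT-1015 samples.

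The region at chr10:125045821-125046077 lies inside CTBP2, which encodes a corepressor that binds many DNA-bound repressors. Its DMSO folds were 9.75, 7.19 and 3.76 in 92-1, 9.76, 11.5 and 11.8 in 22RV1, and 13.6, 10.5 and 11.6 in MV411, with no interval in the 9 FHT-1015 samples. It ranked from the 77.3 to the 96.8 percentile in those DMSO lists. In HCT116, which did not lose it, the DMSO folds were 6.86, 9.84 and 11.95 and the FHT-1015 folds 3.18, 4.08 and 4.02, so each FHT-1015 value was below each DMSO value, within lists normalised separately.

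Inside FRAS1, which encodes an extracellular matrix protein of epithelial basement membranes, chr4:78534277-78534765 was lost in 92-1 (DMSO folds 29.96, 9.68 and 7.14), DU4475 (3.22, 4.41 and 3.98) and HCT116 (6.15, 9.06 and 6.90). A375 had intervals in all 6 samples, with folds of 8.30, 9.89 and 9.95 with DMSO and 5.11, 9.27 and 8.79 with FHT-1015. Replicate 3 of HCT116 FHT-1015 had an interval of fold 3.03 at the joined region but not at the segment that HCT116 lost, because a joined region can be wider than the segment of 1 line.

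LAMB3 encodes a chain of the laminin that anchors epithelial cells to the basement membrane. The region at chr1:209651322-209651525 lies inside this gene, at an inner gene start, and was lost in 92-1 (DMSO folds 10.9, 4.88 and 4.82), A375 (4.03, 4.54 and 5.75) and DU4475 (5.07, 2.74 and 2.56). MV411 had it open throughout, with folds of 15.8, 19.4 and 14.1 with DMSO and 13.9, 17.6 and 17.2 with FHT-1015. HCT116 did too, at 10.2, 4.55 and 8.78 with DMSO and 6.22, 7.27 and 5.70 with FHT-1015. It is the region at 1001.5 bp from the gene end, just inside the limit.

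The region near ZEB2, a repressor of epithelial genes in mesenchymal cells, lies outside the gene at chr2:144559747-144560032. It was lost in 92-1 (DMSO folds 16.2, 5.93 and 4.24), 22RV1 (5.88, 7.10 and 7.83) and A375 (6.31, 7.74 and 3.11). Apart from 1 DU4475 DMSO sample at 2.99, no other line had an interval, with or without the inhibitor. The region nearest to ZNF703, a zinc finger repressor amplified in some luminal breast cancers, had DMSO folds of 15.2, 8.18 and 7.12 in 92-1, 3.75, 4.00 and 3.12 in A375, and 7.68, 8.65 and 7.26 in MV411. Neither region had an interval in any of the 21 FHT-1015 samples.

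The other 6 named regions lie nearest to CYYR1, TLE1 (a Groucho corepressor), RASSF4 (a Ras association protein), SEMA3A (a secreted guidance cue), TMEM108 and ANKK1 (a kinase gene beside the dopamine receptor gene DRD2). Mean DMSO percentiles in their losing lines were 83.1 to 88.2. Lines that did not lose them varied: RASSF4 and CYYR1 kept intervals in all 3 FHT-1015 samples of A375, as CYYR1 did in MV411 and SEMA3A in DU4475. Some losing lines also had FHT-1015 intervals at the joined region, though not at the segment they lost. At CYYR1 these were in replicates 1 and 3 of 22RV1 (folds 2.83 and 2.97), and at RASSF4 in replicate 1 of HCT116 (3.82). The TMEM108 and ANKK1 regions each had an interval in 1 FHT-1015 sample of the 21.

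**Figure D5:**
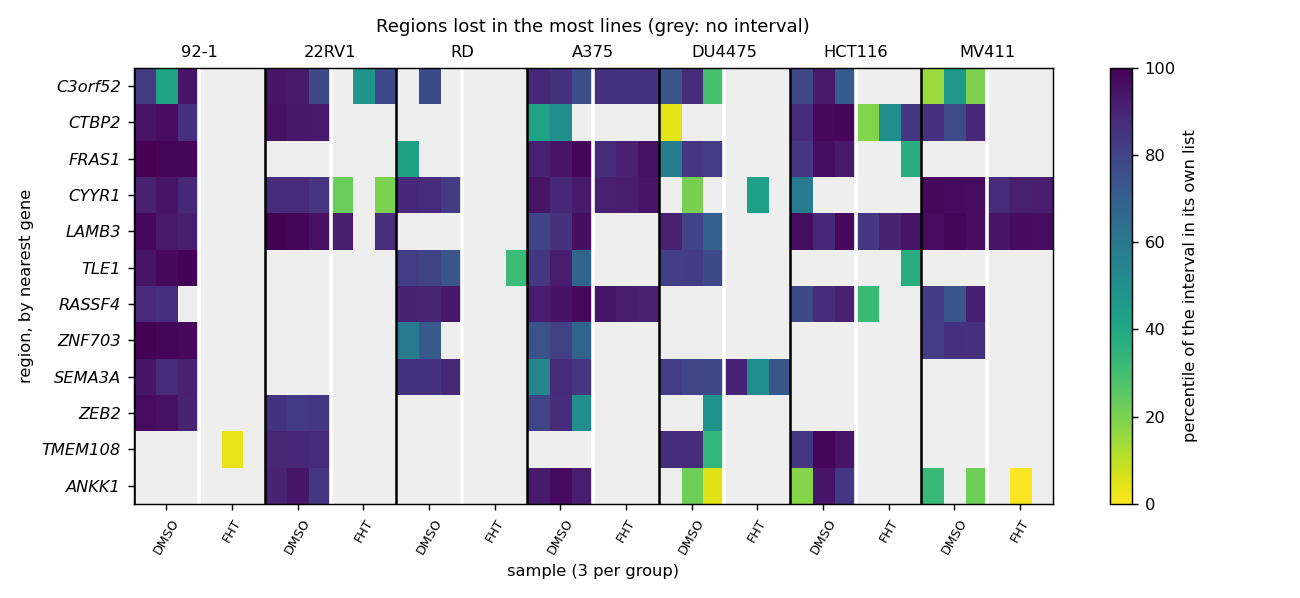
Percentile of the highest overlapping peak in its own list at the 12 named regions, for all 42 samples in blocks of 3 DMSO and 3 FHT-1015 samples per line, with grey where no interval overlapped. A375 keeps dark cells with FHT-1015 at C3orf52, FRAS1, CYYR1 and RASSF4, and the ZNF703 and ZEB2 rows have no interval in any FHT-1015 sample.

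The regions were spread over the genome more than gathered at single genes. They lay nearest to 1696 protein-coding genes, 1400 of which had 1 region. Within 50 kb of each other, 247 regions (11.9%) formed 121 groups, 5 of them of 3 regions and none of 4. Groups of 3 lay at ZNF608, TOMM20 and GNG12, among others, and across IGSF9, SLAMF9 and TAGLN2, and the tightest, at ZNF608, spanned 17.1 kb. Among all shared regions that were either lost in 2 or more lines or kept, 5.85% were lost, which is the background for the genes below.

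Genes with 5 lost regions, the highest number, included GNG12, a gamma subunit of G proteins, MYC, the growth-promoting transcription factor, and TBL1XR1, a subunit of the NCoR corepressor complexes. These had 8, 29 and 23 kept regions. At GNG12 the losses came from 92-1, 22RV1, A375 and HCT116, so that 38.5% of its shared regions were lost. At MYC they came from 6 lines, all but 92-1, and made up 14.7%. The 10 genes with 4 lost regions were ARPP21, CCDC85A, CLVS1, CTNNA2, GRB10, KHDRBS3, LPP, PCDH7, SLC39A11 and ST3GAL1, with 6 (CCDC85A) to 19 (SLC39A11) kept regions. They include the cell contact genes CTNNA2 (a catenin), PCDH7 (a protocadherin) and LPP (a focal adhesion protein), and GRB10, an adaptor of the insulin receptor. ACTR3 (an actin nucleator subunit), ADAMTS9 (a secreted protease), AKAP13 (a kinase anchor), ARL6IP6 and ASAP1 (an Arf GTPase-activating protein) are among the first in the alphabet of the genes with 3. These genes differ in length, from 7.52 kb for MYC to 1463 kb for CTNNA2, and the part of length in the counts was not tested. The genes were ranked by the losses themselves, so the counts are descriptions.

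Genes of 11 lists were near the background of 5.85% or rested on few regions. MAPK feedback genes had 9 lost and 119 kept shared regions nearest to them (7.03% lost), among them 2 each at PHLDA1 and SPRED2, an inhibitor of RAF activation by RAS. Melanocyte lineage genes had 10 lost and 99 kept (9.17%), with 2 lost at PPARGC1A, a mitochondrial coactivator, and 2 at TFAP2A, a neural crest factor. TYRP1, a pigment enzyme, also had 2 lost, in 22RV1 and A375 and in 92-1 and 22RV1. Genes of mesenchymal identity and TGF-beta response had 8 lost and 122 kept (6.15%), with 2 lost at SNAI2, a repressor of epithelial genes. Genes of BAF subunits had 6 lost and 71 kept (7.79%), 2 of them at ARID1B and 2 at BCL7A.

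The remaining lists had 5 lost regions or fewer. Prostate lineage genes had 4 lost and 20 kept (16.7%), among them 1 at GRHL2, an epithelial factor, 1 at NDRG1 and 1 at STEAP1. Intestinal and WNT genes had 5 lost and 42 kept (10.6%): 2 at NKD1, an inhibitor of WNT signalling, and 1 each at the WNT effectors LEF1 and TCF7L2 and at LGR5, a stem cell receptor. Epithelial and breast genes had 5 lost and 76 kept (6.17%), with 3 at TRPS1, a GATA-type repressor, 1 at GRHL2 and 1 at TP63. Muscle genes had 4 lost and 57 kept (6.56%), with 1 each at MEF2C, MYF5, PAX3 and SIX4, and the one at MYF5, a myogenic factor, was lost in 92-1 and RD.

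YAP and TEAD targets had 4 lost and 111 kept (3.48%), with 1 each at AMOTL1, FJX1, NT5E and TEAD1. AP-1 genes had 2 lost and 45 kept (4.26%), 1 at BACH2 and 1 at MAFG, which encode partners of this family. Myeloid genes had 2 lost and 105 kept (1.87%), 1 at RUNX2 and 1 at ZEB2, and both also stand in the mesenchymal list. With 2 lost regions, the share at AP-1 genes cannot be told apart from the background. Lying nearest to an AP-1 gene is also a different measure from holding the AP-1 letters, so this share and that of the promoter windows cannot be compared. Nearest genes were assigned by distance, and expression was not analysed here.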

How the data were processed

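ATAC-seq peak lists of 42 samples were used, 1 list per sample, so replicates were not pooled. Groups and replicate numbers came from the sample labels. Per the submitters' processing notes, hg38, Bowtie2, Picard, MACS2, limma and HOMER were used; the sources used here state neither their versions and settings nor any shift of reads. The deposited fold is a ratio of pileup to background, and p-values and q-values were deposited as −log10. The lowest −log10 p of a list was 2.00 to 2.04, so the lists are lenient. Strict intervals, and strong intervals at marker genes, have a −log10 q of at least 5. These are the authors' values, used here within 1 list at a time.

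Intervals, lost and kept regions, held-out counts and exact permutation tests were computed in Python 3.11.15 (numpy 2.4.6, pandas 2.3.3, scipy 1.17.1), with distances and names from RefSeq GRCh38.p14 (19974 protein-coding genes). The gene table used holds no exons, so exons and introns are not named. The files' build, hg38, is the same assembly. The lists hold no read counts, so no counting interval can be given. Background pileup was solved from fold and p as (P + 1)/(L + 1) and a Poisson tail. The scripts were tested on simulated lists. The highest share of identical intervals between samples of a line was 6.37%. Tests measure the spread between samples labelled as biological replicates.

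The regions and lists were chosen with earlier results of these data known. The rule for names was the regions lost in 5 or more lines (none), the 20 nearest genes with the most regions, and the 2 genes of each list with the most, named with the others where a list held 5 or fewer regions. Results for 3 genes that this rule names are not reported here. Genome sequence of the regions was not used here, so motifs were counted in promoter windows only. Alternatives changed the threshold, list length, segment length, overlap, distance, lines and replicates.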

Additional observations from a re-analysis of the deposited data

How the results depend on the processing

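The number of regions lost in 2 or more lines depended on the rule: it was 459 with segments of at least 200 bp, 1379 without MV411 and 1057 without 92-1, against 2080. It was 2184 with intervals at q below 0.05, 1536 with strict intervals, 1758 with lists of equal length, 1964 with an overlap of 50 bp and 1875 over 5 kb from a gene end. Leaving out each of the 42 samples in turn gave 2163 to 3124, the latter without replicate 3 of 92-1 DMSO; fewer samples make the rule easier to meet.

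Both held-out falls kept their direction and stayed under 0.05 in every alternative run. The difference in RD, A375 and DU4475 was -13.8 to -10.98 points when samples were left out 1 at a time, and that in 92-1, 22RV1, HCT116 and MV411 was -15.6 to -12.2 points. With 92-1 left out of the choice, an alternative added after seeing the data, the first was -12.8 points over 239 regions, and with the 2 low-background 92-1 samples left out, likewise added, the second was -12.9 points. Replicate numbers did not pair the samples: 0 of 21 same-numbered pairs had a correlation over 0.1 (-0.0124 to 0.0558). With the replicate block the differences stayed at -12.4 and -14.7 points, with an exact permutation p of 0.00391 and 0.000488, and the single lines gave 0.25, the smallest that 3 pairs allow.

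Line by line, leaving out 1 sample gave differences of -25.2 to -18.9 points in 92-1, -10.9 to -9.17 in 22RV1, -14.7 to -11.2 in RD, -21.2 to -13.1 in A375, -6.94 to -3.88 in DU4475, -7.34 to -5.15 in HCT116 and -11.6 to -9.80 in MV411. The difference from kept regions reversed in RD (0.386 points, exact permutation p = 0.8), and the cause was not tested. Depth is unknown, and it limits which weak intervals a list can hold.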
